A study of Mus musculus with 2 samples.

Results

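The germline and meiosis genes described here are 39 mouse genes that are known mainly for their work in germ cells. They were found by gene symbol in the deposited expression table, which lists 18032 genes, and all 39 had a row. Polyadenylated RNA was sequenced from 1 library of naive embryonic stem cells and 1 library of primed epiblast-like cells. The mESC library came from the wild-type line E14TG2a, grown without feeder cells in 2iLIF. This serum-free medium held 1 µM of the ERK pathway inhibitor PD0325901, 3 µM of the GSK3 inhibitor CHIR99021 and 100 units/ml of LIF. The cEpiSC library came from wild-type cells converted from such 2iLIF cultures: after 24 h in 2iLIF on fibronectin they spent 2 days in N2B27, a serum-free basal medium, with FGF2 at 12 ng/ml and activin A at 20 ng/ml. Each state was thus seen once, in a culture that also differed in medium, so state, medium and culture cannot be told apart.

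Germ cells are set aside in the mammalian embryo shortly after the epiblast leaves the naive state. Their later programme needs RNA-binding proteins such as DAZL and DDX4, the piRNA pathway, in which PIWI and Tudor-domain proteins use small RNAs to silence transposons, and the meiotic chromosome machinery of cohesin, axis and synaptonemal complex. Many of these genes have CpG-rich promoters that carry DNA methylation in somatic cells and lose it in germ cells. A variant Polycomb complex that holds MGA, MAX and E2F6 also represses many of them in pluripotent cells. MGA and MAX bind the E-box, and E2F6 binds a GC-rich site of the E2F type. Naive cells in 2iLIF are known for low DNA methylation, and methylation rises when they move towards the primed state.

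The libraries held 1.98e+07 (mESC) and 2.00e+07 (cEpiSC) estimated counts. Levels are given as CPM, reads scaled to a common library size, or per length as TPM, transcript abundance scaled to a common total, where genes are compared with each other. The log2 ratio of cEpiSC over mESC carries an exact 95% interval in brackets that covers counting error only, and no p-value is given because neither state was replicated. Markers differed in the direction of the 2 labels. All 5 primed genes exceeded a 2-fold higher level in cEpiSC, with Otx2 at 40.4 and 272 CPM. Of 6 naive genes 4 were at least 2-fold lower, with Klf4 at 313 and 80.2 CPM. The others, Zfp42 (514 and 281 CPM) and Nr0b1 (38.6 and 33.9 CPM), were lower by less than 2-fold. Whether cells in the naive state remained in the cEpiSC culture was not tested. Of the fibroblast markers, Postn had 0 counts in both libraries, and all 6 summed to 3.88 CPM (mESC) and 7.18 CPM (cEpiSC). The 5 listed genes of Sertoli and Leydig cells, the somatic cells of the testis, summed to 5.84 and 7.28 CPM, and 6 genes of extraembryonic endoderm to 76.6 and 32.25 CPM, led by Dab2.

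Promoter sequences from RefSeq (build GRCm38.p6) were matched for 35 of the 39 genes. Those without a match were Dnd1, Piwil2, Tex11 and Tex15. The promoters of 4 genes are shown because these had the 2 highest and the 2 lowest ratios among the members with a matched promoter and at least 5 CPM in a library. Each line gives the 250 bases before the transcription start, 5′ to 3′ on the gene's strand, and capitals mark an E-box (CACGTG) or an E2F6-type site (TCCCGC, or GCGGGA on the other strand).
Mael (higher in cEpiSC, chr1:166238745-166238994, minus strand): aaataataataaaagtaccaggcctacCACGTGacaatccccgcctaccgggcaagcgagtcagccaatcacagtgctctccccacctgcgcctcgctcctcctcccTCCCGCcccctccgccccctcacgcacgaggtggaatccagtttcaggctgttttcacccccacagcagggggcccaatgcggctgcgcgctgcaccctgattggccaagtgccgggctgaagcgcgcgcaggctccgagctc
Tdrkh (higher in cEpiSC, chr3:94412994-94413243, plus strand): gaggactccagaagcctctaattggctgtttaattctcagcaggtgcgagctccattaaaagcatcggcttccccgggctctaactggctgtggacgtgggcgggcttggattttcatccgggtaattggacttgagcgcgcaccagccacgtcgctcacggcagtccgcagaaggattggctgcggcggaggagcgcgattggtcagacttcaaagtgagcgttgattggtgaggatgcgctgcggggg
Dazl (lower in cEpiSC, chr17:50293621-50293870, minus strand): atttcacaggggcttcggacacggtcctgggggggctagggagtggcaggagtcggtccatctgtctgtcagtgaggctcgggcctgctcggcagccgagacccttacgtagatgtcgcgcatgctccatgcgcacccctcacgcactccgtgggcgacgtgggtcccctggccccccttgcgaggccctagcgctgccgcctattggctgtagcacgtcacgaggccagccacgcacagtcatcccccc
Rpl10l (lower in cEpiSC, chr12:66284402-66284651, minus strand): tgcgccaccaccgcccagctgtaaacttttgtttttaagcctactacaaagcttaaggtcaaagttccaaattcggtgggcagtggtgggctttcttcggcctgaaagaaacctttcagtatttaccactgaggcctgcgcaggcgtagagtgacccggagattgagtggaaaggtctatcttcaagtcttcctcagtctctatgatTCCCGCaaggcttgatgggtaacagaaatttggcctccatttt

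Dazl and Mael, which differed in opposite directions, had alike CpG densities. In the whole window of 300 bases, from 250 before to 50 after the start, the Dazl promoter held 28 CpG dinucleotides (observed over expected 0.795) and the Mael promoter 24 (0.780). The Tdrkh window held 25 (0.956) and the Rpl10l window 13 (0.643). Over the 44 windows of the members the median observed over expected ratio was 0.713, against 0.741 for windows of genes at 1 CPM or more and 0.384 for all 32851 windows. The members thus lay near the CpG density of expressed genes in general.

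The E-box was found in a window of 14 of the 35 genes (40%), against 11.8% of genes at 1 CPM or more and 8.09% of all genes with a window. An E2F6-type site was found in 17 (48.6%), against 40.1% and 22.1%. Both motifs stood in windows of 9 members (25.7%), against 5.13% and 2.65%. The search covered both strands, and an E-box and an E2F6-type site can overlap by an end base. A match is a run of letters and not a measured binding site. The E-boxes of the members are shown with up to 10 bases on either side, because they are the binding motif of the repressor described above.
Ddx4 (chr13:112652324-112652349, minus strand): cgtccgcccgCACGTGcagccgttta
Hormad1 (chr3:95559610-95559635, plus strand): aagggtgcgcCACGTGccagtgacag
Hormad1, other site (chr3:95559647-95559672, plus strand): gcgcactgcgCACGTGctgaccggag
Mael (chr1:166238952-166238977, minus strand): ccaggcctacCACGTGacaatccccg
Mov10l1 (chr15:88982744-88982763, plus strand): ccttCACGTGctaaccgcca
Slc25a31 (chr3:40708768-40708793, plus strand): caactggaaaCACGTGttatggtcac
Stag3 (chr5:138280329-138280354, plus strand): cgctggagccCACGTGacaggactgc
Stk31 (chr6:49395474-49395499, plus strand): gccggccaccCACGTGaccagggctg
Syce2 (chr8:84872160-84872185, plus strand): tttcattcagCACGTGctcggggcgg
Sycp1 (chr3:102936179-102936204, minus strand): gagaacccggCACGTGggaagggaaa
Sycp3 (chr10:88459513-88459538, plus strand): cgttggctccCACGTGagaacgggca
Sycp3, other site (chr10:88459534-88459559, plus strand): gggcatggagCACGTGctaggaggcg
Taf7l (chrX:134476524-134476549, minus strand): cctcttatacCACGTGacagaactcg
Tdrd1 (chr19:56826188-56826213, plus strand): gggctgcgcgCACGTGggagtaaact
Tdrd9 (chr12:111971384-111971409, plus strand): tctccataaaCACGTGcctgtccagg
Tdrd9, other site (chr12:111971454-111971479, plus strand): acgaggctccCACGTGcatgcagggc
Tex12 (chr9:50561346-50561371, minus strand): gcgagactgtCACGTGgctcgcgcgc

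A gene can have several annotated starts, and each window belongs to 1 of them. All 17 E-boxes began before the start of their own window, from 246 bases (Mov10l1) to 11 bases (Tdrd1) upstream. By the RefSeq span of the whole gene, however, 13 lay outside the gene and 4 inside it (Ddx4, Stag3, Syce2 and Tdrd1), because another start lies further upstream. The stretch printed for Stag3 begins 7815 bases after the gene's first base, and those of Ddx4, Syce2 and Tdrd1 begin 284, 49 and 17 bases after it. They occurred in 5 of the 6 role groups: 5 of the 14 genes encode parts of the synaptonemal complex or chromosome axis, 5 belong to the piRNA and Tudor group, and Ddx4, Stag3, Slc25a31 and Taf7l to the remaining groups, while the Tex and sperm surface group had none in its 4 matched genes. Of the promoters matched, the E-box was present in 4 of 10 genes at least 2-fold higher in cEpiSC, 10 of 19 within 2-fold and 0 of 3 lower (Dazl, Nanos3 and Rpl10l). With 3 lower genes these shares describe the members only.

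**Figure D1:**
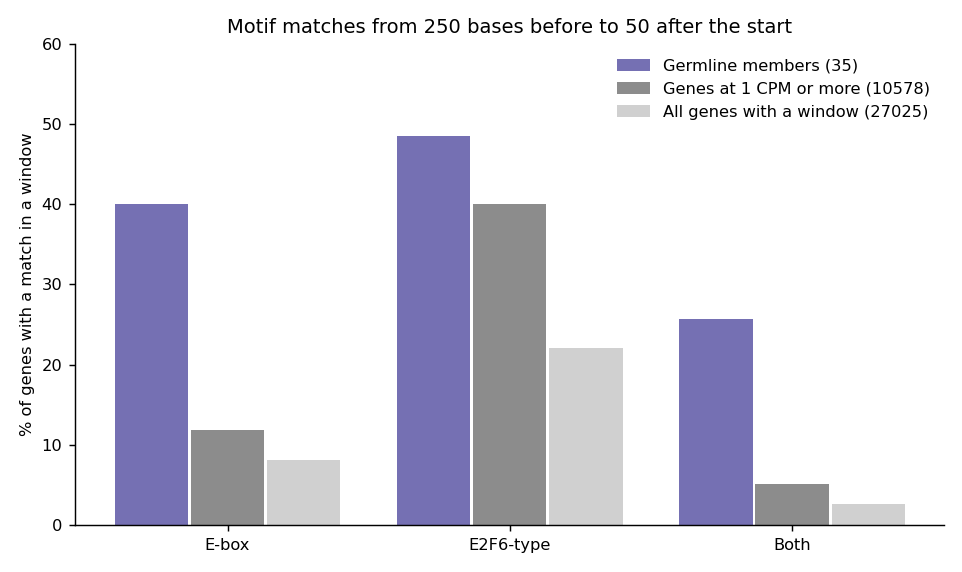
Bars give the percentage of genes with at least 1 match to the E-box, to the E2F6-type site or to both in a promoter window, for 35 germline genes, 10578 genes at 1 CPM or more and all 27025 genes with a window. The germline genes stood at 40% for the E-box against 11.8% and 8.09%.

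Most germline genes were detected in both states, and more of them stood higher than lower in cEpiSC. At 1 CPM or more were 32 of the 39 in mESC (82.1%) and 36 in cEpiSC (92.3%). Only Nanos2, Sycp2 and Tex101 stayed below that level in both. Of all 18032 listed genes, 68.3% reached that level in mESC and 71.3% in cEpiSC. Of the 36 that passed, 12 were called higher (at least 2-fold by the log2 ratio), 3 lower and 21 within 2-fold. Among all 13243 genes that passed, 13.6% were called higher and 9.25% lower. The median log2 ratio of the 36 was 0.54, against -0.02 for all 13243. For 9 higher members and 1 lower member even the whole counting interval was past 2-fold, where the shares of all genes were 9.15% and 6.34%. Tdrd1, Tdrd9, Syce3 and Tex12 passed the filter only through cEpiSC, so their direction was fixed by the filter. Of these, Tdrd1 and Syce3 are among the 12 higher members and among the 9, and all of them count in the median. In bulk RNA, more cells with a transcript and more transcript per cell cannot be told apart.

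**Figure D2:**
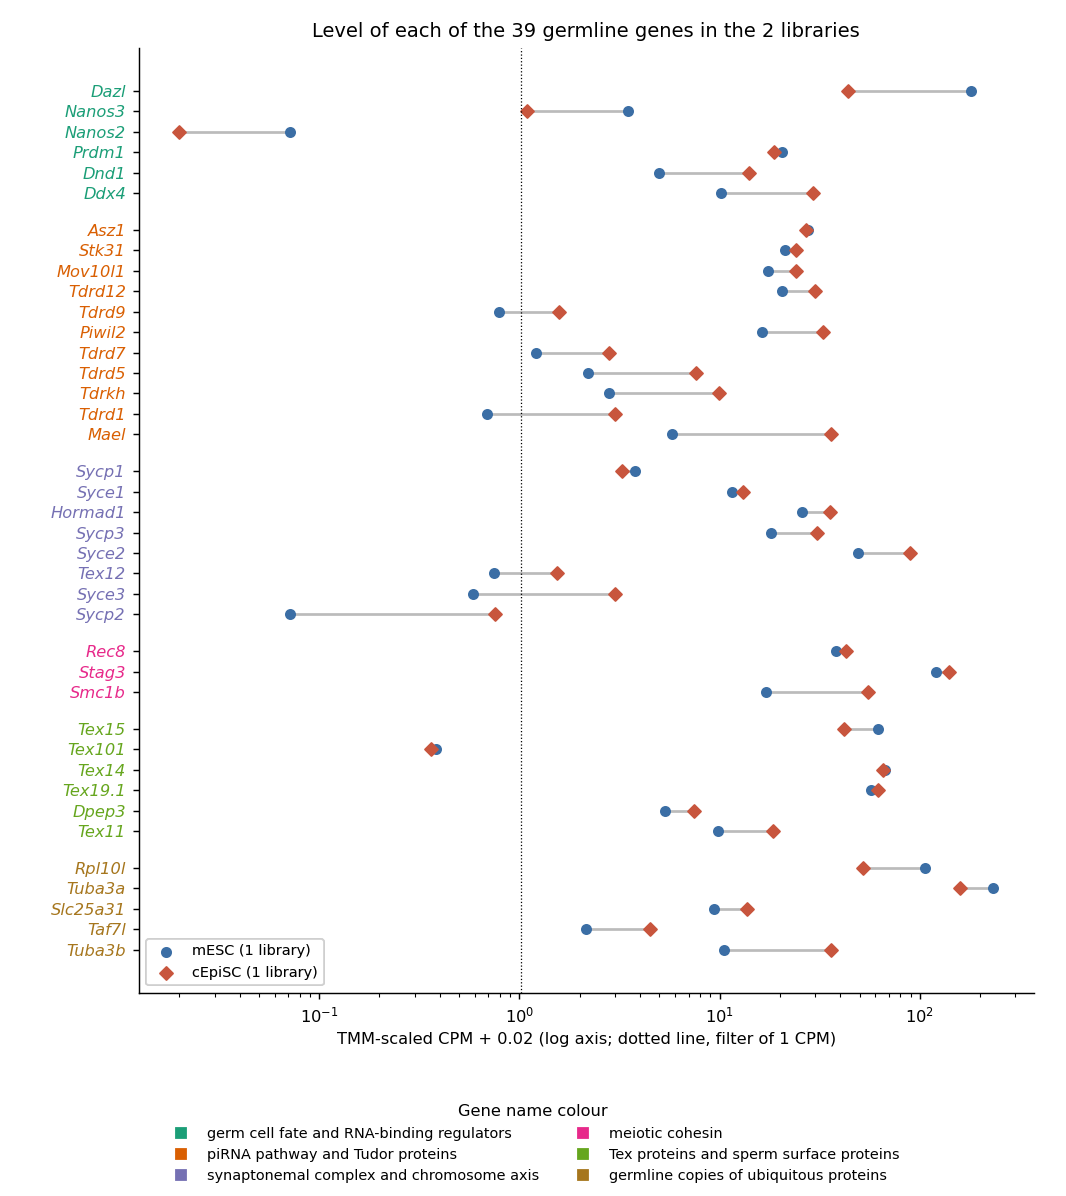
Each row is 1 of the 39 genes, grouped by role, with its TMM-scaled CPM + 0.02 on a log axis in mESC (blue circle) and cEpiSC (red diamond). Levels run from Nanos2, with 1 and 0 counts, to Tuba3a at 233 and 159 CPM.

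Per length, the summed level of the 39 genes was nearly the same in the libraries, at 1163 TPM in mESC and 1139 TPM in cEpiSC, but it was spread differently. Tuba3a, Rpl10l and Dazl, the 3 highest members in mESC, made up 52.7% of the sum in mESC and 27.9% in cEpiSC. The other 36 genes went from 551 to 821 TPM in sum. The 3 were picked by their level in mESC, which by itself favours a smaller share in cEpiSC. Syce2, at rank 4 in mESC, went the other way, from 105 to 183 TPM. The level of Tuba3a also rests on shared reads. The median over all 39 was 7.27 TPM in mESC, close to the 7.26 TPM of all listed genes, and 13.2 TPM in cEpiSC, where all genes stood at 7.01 TPM. Above 10 TPM were 16 members in mESC and 25 in cEpiSC, and above 100 TPM 4 (Tuba3a, Rpl10l, Dazl and Syce2) and 2 (Tuba3a and Syce2). Dazl moved from rank 3 to rank 13 of the members, and Mael from rank 22 to rank 7.

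**Figure D3:**
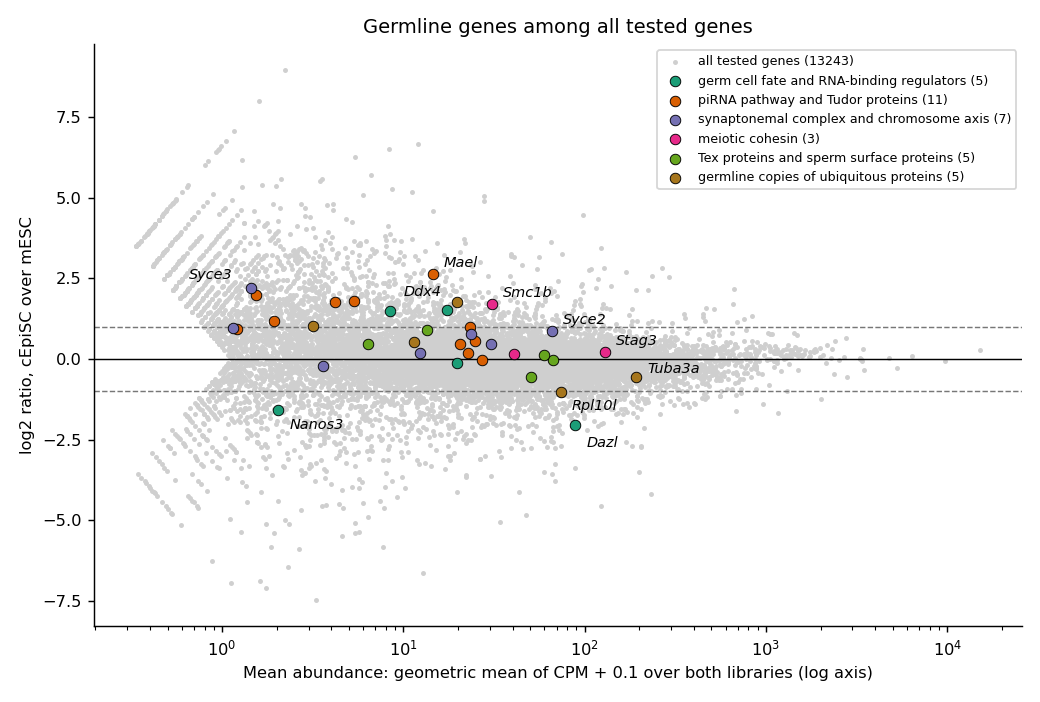
Each point is a gene at 1 CPM or more in a library, with the geometric mean of CPM + 0.1 on a log axis and the log2 ratio of cEpiSC over mESC, the germline genes in colour and 13243 genes in grey. Dazl lies at -2.05 among abundant genes, and Mael at 2.63.

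The germ cell fate and RNA-binding regulators split in both directions. Dazl encodes an RNA-binding protein that controls translation in germ cells (Entrez 13164, chromosome 17, 50279393 to 50293620). It had 3501 counts (181 CPM) in mESC and 893 counts (43.6 CPM) in cEpiSC. It was therefore 4.15-fold lower, a log2 ratio of -2.05 (-2.16 to -1.95), and the only member whose interval lay wholly beyond 2-fold lower. Nanos3, an RNA-binding protein gene needed for survival of primordial germ cells (Entrez 244551, chromosome 8, 84173733 to 84176552), had 67 and 22 counts, 3.46 and 1.08 CPM. Its ratio of -1.600 (-2.45 to -0.97) was lower as well, at low depth.

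Ddx4 and Dnd1 went the other way. Ddx4, the Vasa helicase gene that marks germ cells (Entrez 13206, chromosome 13, 112598333 to 112652633), had 197 counts (10.2 CPM) in mESC and 596 counts (29.1 CPM) in cEpiSC. It was 2.86-fold higher, with a log2 ratio of 1.51 (1.28 to 1.76). Dnd1, whose protein works with the Nanos proteins on germ cell mRNAs, had 96 and 287 counts, 4.96 and 14.02 CPM (1.48 [1.16 to 1.85]). Dnd1 shares 5.80% of its annotated exon bases with Wdr55 on the opposite strand, which stood at 30.9 and 40.1 CPM. Whether reads of Wdr55 entered the Dnd1 count was not tested. Prdm1 encodes BLIMP1, a transcription factor that specifies primordial germ cells, and lay at 20.4 and 18.7 CPM (-0.12 [-0.33 to 0.08]), so that no difference was detectable at this depth. Nanos2, a gene of male germ cells, had 1 count in mESC and 0 in cEpiSC, and 0 counts allow up to 0.147 CPM. Thus, the direction differed between members of 1 group whose products are all used by early germ cells.

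The piRNA and Tudor genes were the group with most higher members. All 11 passed the filter, and 6 (54.5%) were called higher, 0 lower and 5 within 2-fold, with a median ratio of 1.00. Among all genes that passed, 13.6% were higher and 9.25% lower. Tdrd1, among the 6, and Tdrd9 passed only through cEpiSC, so the filter fixed their direction, and both count in the median. Mael, needed for piRNA production and transposon silencing (Entrez 98558, chromosome 1, 166201385 to 166238744), had the highest ratio of the 36 members. It had 111 counts (5.74 CPM) in mESC and 739 counts (36.1 CPM) in cEpiSC, a 6.30-fold difference and a log2 ratio of 2.63 (2.36 to 2.96). Its promoter, printed above, holds an E-box and an E2F6-type site before the start.

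Several Tudor-domain genes, whose products tether PIWI proteins, had low levels in mESC. Tdrkh (Entrez 72634, chromosome 3, 94413243 to 94434854) encodes a mitochondrial partner of PIWI proteins and had 54 and 202 counts, 2.79 and 9.87 CPM (1.79 [1.38 to 2.28]). Of its annotated exon bases, 36.7% overlap Oaz3 on the opposite strand, a gene not analysed here, and whether its reads entered the count was not tested. Tdrd5 had 42 and 156 counts (1.77 [1.31 to 2.34]), and Tdrd1, a scaffold of the germ granule, 13 and 61 (2.00 [1.27 to 3.14]). Tdrd7 had 23 and 57 counts (1.16 [0.51 to 1.99]) and Tdrd9, a helicase gene, 15 and 32 (0.93 [0.09 to 2.00]). Of these 5 genes 4 were called higher and Tdrd9 was not, and the direction of Tdrd1 and Tdrd9 was fixed by the filter. All lay below 4 TPM in both libraries except Tdrkh, at 1.6 and 6.02 TPM. On the deposited TPM with a pseudocount of 1, which shrinks ratios at such levels, Tdrd1 (0.70) and Tdrd7 (0.55) lay within 2-fold, as Tdrd5 did on FPKM (0.95).

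Piwil2, the PIWI protein gene of the group (Entrez 57746, chromosome 14, 70372477 to 70436898), had 315 counts (16.3 CPM) against 670 (32.7 CPM). Its ratio of 1.00 (0.81 to 1.21) sat on the 2-fold line, and it was within 2-fold with a prior count of 5, with TPM and with FPKM. Tdrd12 (20.5 and 30.0 CPM, 0.55 [0.36 to 0.73]) and the helicase gene Mov10l1, which starts piRNA processing (17.4 and 24.2 CPM, 0.48 [0.28 to 0.68]), were higher by less. Stk31, a gene for a Tudor-domain kinase, stood at 21.3 and 23.9 CPM (0.17 [-0.02 to 0.36]). Asz1, which encodes a germ granule protein at mitochondria, stood at 27.5 and 26.9 CPM (-0.03 [-0.21 to 0.14]), and its sign turned with library totals or FPKM. For these last genes no difference was detectable at this depth. In mESC the levels per length of the 11 genes ran from 0.27 TPM (Tdrd1) to 29.9 TPM (Asz1), and in cEpiSC from 0.68 TPM (Tdrd9) to 43.2 TPM (Mael).

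**Figure D4:**
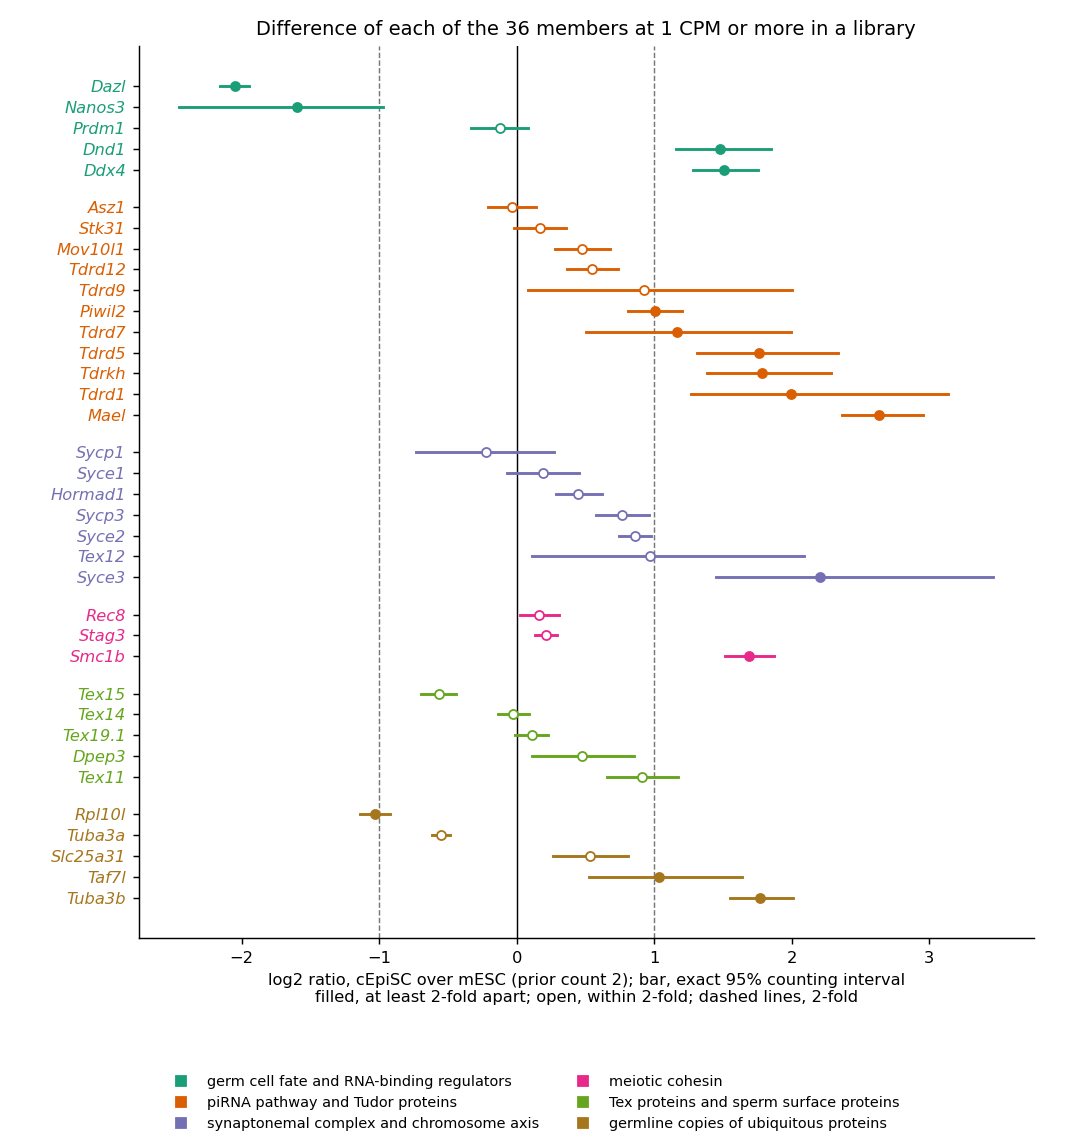
Points give the log2 ratio of cEpiSC over mESC for the 36 members at 1 CPM or more in a library, grouped by role, filled where at least 2-fold apart, and bars the exact 95% counting interval. The piRNA and Tudor genes run from -0.03 (Asz1) to 2.63 (Mael), and the Tex group has no filled point.

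Genes of the synaptonemal complex and chromosome axis stood mostly between 0 and 2-fold higher. Of 8 genes 7 passed the filter. Of the 7, 1 (14.3%) was called higher, 0 lower and 6 within 2-fold, and the median ratio was 0.77. Among all genes that passed, 13.6% were higher and 9.25% lower. Syce3 and Tex12 passed only through cEpiSC, so their direction was fixed by the filter, and both count in the median. Syce2, a central element gene (Entrez 71846, chromosome 8, 84872111 to 84887446), was the most abundant, with 950 counts (49.1 CPM, 105 TPM) in mESC and 1825 counts (89.2 CPM, 183 TPM) in cEpiSC. Its ratio of 0.86 (0.75 to 0.98) lay above 0 and below the 2-fold line along its whole interval. Syce3, another central element gene (Entrez 75459, chromosome 15, 89390174 to 89410503), was the 1 called higher, with 11 and 61 counts, 0.568 and 2.98 CPM (2.20 [1.45 to 3.47]).

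Sycp3, which encodes the lateral element (Entrez 20962, chromosome 10, 88459587 to 88473236), reached 17.98 and 30.6 CPM (0.77 [0.58 to 0.96]). Its annotated exons overlap those of Chpt1 on the opposite strand over 52.2% of their bases. Chpt1 stood at 30.3 and 13.4 CPM (-1.17 [-1.39 to -0.97]). Whether its reads entered the Sycp3 count in either library was not tested. Hormad1, an axis protein gene, stood at 25.9 and 35.4 CPM (0.45 [0.28 to 0.62]). Syce1 stood at 11.5 and 13.1 CPM (0.19 [-0.07 to 0.45]). Tex12, a partner of SYCE2, had 14 and 31 counts (0.97 [0.11 to 2.09]), and was at least 2-fold higher with library totals (1.04) or a prior count of 0.5 (1.04). The transverse filament gene Sycp1 had 73 and 66 counts (-0.22 [-0.73 to 0.27]). Sycp2, the partner of SYCP3 in the lateral element, had 1 count in mESC and 15 in cEpiSC, below the filter, with an interval of the log2 ratio from 1.13 to 9.22. The genes of this 1 structure were thus present at unequal levels: in cEpiSC, Syce2 stood at 183 TPM, Sycp3 at 51.7, Sycp1 at 1.83 and Sycp2 at 0.28 TPM. The level of Sycp3 was not corrected for the overlap with Chpt1.

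The 3 meiotic cohesin genes differed from each other. Stag3 (Entrez 50878, chromosome 5, 138272514 to 138312397) was the second most abundant member by CPM in cEpiSC, with 121 CPM in mESC and 140 CPM in cEpiSC (0.21 [0.13 to 0.29]). Rec8, the meiotic kleisin, stood at 38.2 and 42.9 CPM (0.17 [0.02 to 0.31]). Smc1b (Entrez 140557, chromosome 15, 85064689 to 85131957) had 329 counts (17.002 CPM) and 1125 counts (55.0 CPM), 3.23-fold higher in cEpiSC (1.69 [1.51 to 1.87]). Only Smc1b of the 3 was called, where 13.6% of all genes that passed the filter were higher and 9.25% lower.

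Each cohesin gene has a partner used in all dividing cells, which gives a scale for these levels. Stag3 at 61.1 TPM in mESC stood beside Stag1 and Stag2 at 78.3 TPM together, and in cEpiSC 68.8 TPM stood beside 67.2 TPM. The germline form thus made up 43.8% and 50.6% of the sum. Smc1b made up 8.195% of the sum with Smc1a in mESC and 26.7% in cEpiSC, as Smc1a went from 86.5 to 66.5 TPM. Rec8 made up 14.3% and 19.3% of its sum with Rad21. Mov10l1 made up 4.81% and 9.69% beside Mov10.

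**Figure D5:**
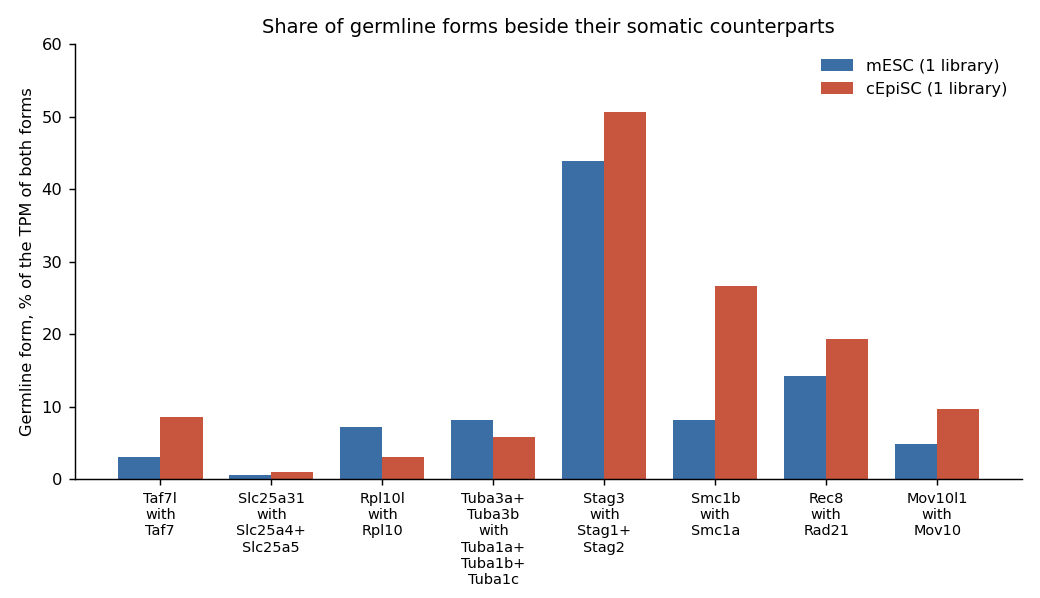
Bars give, for 8 pairings, the TPM of the germline form as a percentage of the TPM of the germline and somatic forms together, in mESC (blue) and cEpiSC (red), 1 library each. Stag3 reached 43.8% and 50.6%, and Slc25a31 0.58% and 1.054%.

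Of the 5 germline copies of ubiquitous proteins, 2 (40%) were higher, 1 (20%) lower and 2 within 2-fold. Among all genes that passed the filter, 13.6% were higher and 9.25% lower. With 5 genes these shares describe the members only. Rpl10l, a retrogene copy of the ribosomal protein gene Rpl10 that serves spermatocytes (Entrez 238217, chromosome 12, 66283379 to 66284401), had 2048 counts (106 CPM) in mESC and 1060 counts (51.8 CPM) in cEpiSC. It was 2.04-fold lower (-1.03 [-1.14 to -0.92]), but within 2-fold with library totals (-0.96) or FPKM (-0.95). Rpl10 stood at 2622 and 2985 TPM, so Rpl10l made up 7.23% and 3.14% of their sum. Taf7l, an X-linked germline form of the transcription factor subunit gene Taf7, had 41 and 91 counts (1.03 [0.52 to 1.64]). It lay within 2-fold with a prior count of 5 (0.99), TPM (0.94), FPKM (0.87) or centring on length (0.97). It made up 3.15% and 8.54% beside Taf7. Slc25a31, a germline carrier of ATP and ADP, stood at 9.41 and 13.6 CPM (0.53 [0.26 to 0.81]), far below its somatic counterparts Slc25a4 and Slc25a5, which summed to 1429 and 1101 TPM.

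Tuba3a and Tuba3b, testis alpha-tubulin genes on chromosome 6, were the only members with counts that were not whole numbers, as arises when reads are shared among similar sequences. Tuba3a (chromosome 6, 125278270 to 125286081) stood at 233 and 159 CPM (-0.55 [-0.62 to -0.49]) and Tuba3b (chromosome 6, 145615963 to 145621477) at 10.5 and 36.2 CPM (1.77 [1.55 to 2.01]). Their summed counts went from 4710 to 3991, a ratio of -0.32 (-0.38 to -0.26). The division between them rests on how shared reads were assigned, and their intervals leave that out. Without both, 11 of 34 members were higher and 3 lower, with the same median of 0.54.

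No gene of the Tex and sperm surface group was called, where 77.2% of all genes that passed the filter were within 2-fold. Tex14, which keeps germ cells joined by bridges, stood at 66.9 and 65.8 CPM (-0.02 [-0.14 to 0.09]), with a sign that turned under 3 other settings. Tex19.1, a gene that limits transposons in germ cells and placenta, stood at 57.1 and 61.5 CPM (0.11 [-0.01 to 0.23]). Tex15, needed for transposon methylation in male germ cells, was lower by less than 2-fold at 61.7 and 41.6 CPM (-0.57 [-0.70 to -0.44]). Tex11, an X-linked gene of meiotic recombination, was higher by less than 2-fold at 9.77 and 18.4 CPM (0.91 [0.66 to 1.18]). Dpep3, a surface peptidase gene, stood at 5.32 and 7.43 CPM (0.47 [0.11 to 0.86]), and Tex101, which encodes a surface protein of sperm, had 7 counts in each library. The 3 most abundant Tex genes were thus within 2-fold in these libraries.

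For 31 members the deposited counts and FPKM in both libraries allowed the effective transcript length to be computed, which depends on the mix of isoforms. The difference was widest for 5 of them. Taf7l went from 1751 to 1525 bases, Tdrd12 from 1856 to 1698, Tdrkh from 3128 to 2851, Sycp1 from 3344 to 3062 and Tdrd5 from 3360 to 3636. Except for Tdrd12 (397 counts in mESC), these lengths rest on few reads. In mESC, Taf7l had 41 counts, Tdrkh 54, Sycp1 73 and Tdrd5 42. Whether the isoforms differed between the libraries was not tested. The lengths of the others, among them Dazl (2855 and 2856 bases) and Mael (1453 in both), were alike.

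Other genes of meiotic entry and recombination included both higher and lower genes. Of 33 listed genes 27 passed the filter. Of the 27, 9 (33.3%) were called higher, 1 (3.70%) lower and 17 within 2-fold, and the median ratio was 0.78. Among all genes that passed, 13.6% were higher and 9.25% lower. In the list, Meiob, Mei1, Msh4 and Terb1 passed only through cEpiSC and Spata22 only through mESC, so the filter fixed their direction. Meiob and Mei1 are among the 9, and all of these genes count in the median. Meioc, which sustains entry into meiosis, stood at 5.37 and 51.2 CPM (3.23 [2.96 to 3.56]). Dmc1, the meiotic recombinase, had 26 and 180 counts (2.62 [2.11 to 3.36]), and Meiob, a gene for a meiotic protein that binds single-stranded DNA, 1 and 61 counts (4.34 [3.32 to 11.18]). Stra8, which starts meiosis, was the 1 lower gene at 32.5 and 15.8 CPM (-1.04 [-1.24 to -0.85]), named after its value was seen. Spo11, whose enzyme makes the meiotic breaks, had 0 counts in both libraries.

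Of 17 other genes listed for the piRNA pathway, 14 passed the filter. Of the 14, 2 (14.3%) were higher, 1 (7.14%) lower and 11 within 2-fold, with a median ratio of -0.03. The shares lay near the 13.6% higher and 9.25% lower of all genes that passed. Piwil4 had 27 and 117 counts (1.96 [1.42 to 2.70]) and the helicase gene Ddx25 51 and 179 (1.69 [1.27 to 2.21]). Fkbp6, a cochaperone of PIWI loading, was lower at 134 and 42.7 CPM (-1.64 [-1.76 to -1.54]). The median of the 11 piRNA and Tudor members, among them Tdrd1 and Tdrd9 with directions fixed by the filter, was thus not shared by this list. The list's median includes its most abundant genes, Fkbp8 (320 and 302 CPM, -0.08) and Ddx39b (302 and 243 CPM, -0.31). No role in the piRNA pathway was established for these genes here. How far the contrast depends on the choice of genes was not tested.

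Factors of primordial germ cells had more lower than higher genes. Of 18, 5 (27.8%) were lower, 2 (11.1%) higher and 11 within 2-fold, with a median ratio of -0.50. Among all genes that passed the filter, 9.25% were lower and 13.6% higher. Kit, a receptor of migrating germ cells, stood at 413 and 68.7 CPM (-2.59 [-2.67 to -2.51]) and Prdm14 at 57.8 and 20.5 CPM (-1.49 [-1.66 to -1.33]). Utf1 was higher at 100.3 and 710 CPM (2.82 [2.75 to 2.89]). Most genes of this list are also used by pluripotent cells. Of 8 defining germ cell markers, which include Nanos3, Dnd1 and Prdm1, 4 were lower and 1 higher, with summed levels of 676 CPM in mESC and 250.04 CPM in cEpiSC, and none was at 0. Kit alone made up 413 and 68.7 CPM of these sums, and the other 7 markers summed to 262 and 181 CPM. Their part in the results for the members was not tested.

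Of 26 listed repressors of germline genes, 22 (84.6%) were within 2-fold, 3 higher and 1 lower, near the shares of all genes, of which 77.2% were within 2-fold. The de novo DNA methyltransferase gene Dnmt3a (20.9 and 462 CPM) and the gene of its cofactor, Dnmt3l (37.6 and 406 CPM), were higher. The maintenance methyltransferase gene Dnmt1 stood at 559 and 311 CPM (-0.84 [-0.89 to -0.80]) and that of its partner Uhrf1 at 843 and 439 CPM (-0.94 [-0.98 to -0.90]), both below 0 but within 2-fold. Zbtb16, a gene of spermatogonial stem cells, was lower at 92 and 5 counts (-3.82 [-5.94 to -3.01]). It passed only through mESC (4.75 CPM in mESC and 0.244 CPM in cEpiSC), so the filter fixed its direction. Dnmt1, Uhrf1 and the genes of the E-box and E2F6 binding complex were chosen from the list after their values were seen. In that complex L3mbtl2 stood at 135 and 222 CPM (0.72 [0.65 to 0.79]) and Mga at 221 and 158 CPM (-0.48 [-0.55 to -0.42], with partly shared reads). E2f6 (32.0 and 36.7 CPM), Max (70.4 and 81.1 CPM) and Pcgf6 (63.0 and 60.2 CPM) lay closer to 0. DNA methylation and binding of these factors were not measured here.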

How the data were processed

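Polyadenylated RNA was sequenced with paired reads from 2 libraries, 1 per state, so p-values were not computed. Tools listed in the submitters' processing notes are RSEM 1.3.1, HISAT2, Bowtie2 and DESeq2 1.34.0, with the build GRCm38.p6. The sources used here do not give the annotation, the role of each tool or whether counting used strand. Per the file headers, the authors deposited read counts, TPM and FPKM per gene. The deposited read counts are estimated counts, since 13.7% of genes hold a value over 0.005 from a whole number in a library. The TPM values deposited by the authors sum to the same total in each library, and the deposited FPKM values sum to 543589 (mESC) and 590682 (cEpiSC). Columns of other samples numbered 0.

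Rounded counts received TMM factors (0.975 and 1.03) from edgeR 4.0.16, run in R 4.3.3, with a prior count of 2 in log2 ratios and none in folds. Genes at 1 CPM or more in a library were called by size alone, at 2-fold. Intervals are exact conditional (Clopper-Pearson) intervals. They were run on simulated data that held counting error alone, as the intervals assume. That run checks the calculation and not the coverage in real libraries. PCR reads are not independent molecules, so intervals and the floor of 3 counts per library cover counting error only. Coordinates are those of RefSeq genes, joined by Entrez identifier (39 of 39 members), exon overlaps come from GENCODE vM21 on the same build, and effective lengths were computed from counts and FPKM. Python 3.11.15 was used for the rest.

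The members and lists were chosen with earlier results of these data known. All members are named, and of each other list up to 3 genes with the largest ratios past 2-fold, or the 2 most abundant where none was. Some genes were named outside this rule, with their values known. Besides those pointed out above, they were Spo11, Fkbp8, Ddx39b, Sohlh1, Sohlh2, Figla, Gdf9, Tnp1, Tnp2 and Acr. Alternatives were DESeq2 1.42.0 size factors, library totals, no filter, a stricter minimum of 5 CPM, a prior count of 0.5 or 5, and TPM or FPKM with a pseudocount of 1. Centring on 10 bins of length and leaving out genes with shared reads were added after seeing the data.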

Additional observations from a re-analysis of the deposited data

How the results depend on the processing

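The number of members called higher ran from 7 (deposited FPKM, pseudocount 1) to 13 (library totals, no filter, or a prior count of 0.5), against 12, and that of lower members from 2 to 3. Of all genes, FPKM called 7.14% higher and 5.13% lower. The median ratio of the members ran from 0.43 (TPM) to 0.61 (library totals), against a median of all genes between -0.06 and 0.05. No called member changed sign, and 9 of the 15 called members stayed called under each of 7 settings. Piwil2, Taf7l, Tdrd1, Tdrd5, Tdrd7 and Rpl10l were within 2-fold under at least 1 setting, and Tex12 was called under 2. Low counts limit Nanos2, Sycp2 and Tex101, which were not called, and widen the intervals of Tdrd1, Tdrd7, Tdrd9, Syce3 and Tex12. With 1 library per state, no replicate was left out and no spread between cultures is known.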

Other observations

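Genes of later gamete stages were mostly near silent. Of 18 listed spermatid genes 11 were in the table and 3 passed the filter. All 3 were within 2-fold, as were 77.2% of all genes that passed. The most abundant were Odf2, a centrosome and sperm tail gene (226 CPM in mESC and 218 CPM in cEpiSC, log2 ratio -0.05 [-0.11 to 0.01]), and Ldhc, the sperm lactate dehydrogenase gene (9.61 and 6.16 CPM, -0.63 [-0.98 to -0.31]). The nuclear transition protein genes Tnp1 (0 and 1 count) and Tnp2 (1 count in each) and the acrosin gene Acr (0 in both) were at or under the floor of 3 counts.

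Of 17 listed oocyte genes 14 were in the table and 5 passed, of which 1 (20%) was higher and 1 (20%) lower. Among all genes that passed, 13.6% were higher and 9.25% lower. Tcl1, which also acts in embryonic stem cells, had 3004 and 683 counts (-2.21 [-2.34 to -2.10]), and Padi6, a gene of the oocyte's cytoplasmic lattices, 8 and 24 counts (1.31 [0.30 to 2.87]). Padi6 passed only through cEpiSC (0.413 CPM in mESC and 1.17 CPM in cEpiSC), so the filter fixed its direction. Sohlh2, a transcription factor gene of early germ cells in both sexes, was abundant and alike in the libraries at 196 and 198 CPM (0.02 [-0.04 to 0.08]), whereas its partner Sohlh1 had 1 and 3 counts. Figla had 0 counts in both libraries and Gdf9 4 in each.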
